A study of Mus musculus with 33 samples.

Results

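Trem1 and Trem2 are 2 of the 57 panel genes that were measured in all 33 libraries of a study of transferred mouse monocytes, and both were taken by name, each across every library, together with their ratio. Purified CD11b+Ly6C+ monocytes from the bone marrow (BM) of wild-type C57BL/6 mice were given intravenously to C57BL/6 CCR2-/- recipients, which lack the chemokine receptor that classical monocytes use to leave the marrow, whereas the donor cells carry it. The day before transfer, the small intestine of some recipients was handled surgically under anaesthesia, with an analgesic in the drinking water (manipulated), and the others had no surgery (non-manipulated). No sham-operated libraries were among them, so handling of the gut, anaesthesia and analgesic cannot be told apart. Donor cells were recovered at day 1, with 100 sorted cells pooled per library of recovered cells, and RNA was reverse transcribed, preamplified with gene-specific primers and counted with bar-coded nCounter probes.

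The groups were small intestine (5 libraries), liver (2), spleen (3) and BM (3) of manipulated recipients, and small intestine (4), liver (3), spleen (3) and BM (3) of non-manipulated recipients. A further 4 libraries held cells of manipulated donors that were recovered from the small intestine of non-manipulated recipients, and monocytes that were never transferred made up 1 library from a manipulated and 2 from non-manipulated donors (primary monocytes). Small intestine and liver were digested with enzyme and spleen and BM were not, so tissue and preparation cannot be told apart. In pooled cells, a smaller share of expressing cells and less RNA per cell cannot be told apart either.

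The TREM family are immunoglobulin-like receptors of myeloid cells with short cytoplasmic tails. TREM1 and TREM2 both signal through the adaptor DAP12 (Tyrobp) and the kinase Syk. TREM1 is known as an amplifier: its engagement strengthens Toll-like and NOD-like receptor responses in neutrophils and monocytes and raises secretion of TNF and IL-1. TREM2 binds lipids and lipoproteins, is known from tissue macrophages, microglia and osteoclasts, supports their survival and phagocytosis, and restrains Toll-like receptor responses in cultured mouse macrophages. In the gut, monocytes that enter the healthy lamina propria become resident macrophages, while those that enter an inflamed gut produce inflammatory cytokines.

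Both genes lie on the plus strand of chromosome 17 in mouse build GRCm38, Trem1 at chr17:48232713-48246927 and Trem2 at chr17:48346401-48352276. A gap of 99.5 kb parts them, with 4 protein-coding genes in it, Trem3, Treml4, Treml2 and B430306N03Rik. The Trem1 probe targets bases 1705 to 1804 of transcript NM_021406.5 and the Trem2 probe bases 647 to 746 of NM_031254.2. The 224 bases before each annotated gene start are given here because the 2 neighbours encode receptors that share an adaptor. Over the 33 libraries their levels correlated at r = 0.08, and a difference between the 2 genes was not tested. Sequences are from RefSeq (GRCm38.p6, plus strand, 5′ to 3′), and capitals mark matches to the motifs described next.
Trem1, chr17:48232489-48232712: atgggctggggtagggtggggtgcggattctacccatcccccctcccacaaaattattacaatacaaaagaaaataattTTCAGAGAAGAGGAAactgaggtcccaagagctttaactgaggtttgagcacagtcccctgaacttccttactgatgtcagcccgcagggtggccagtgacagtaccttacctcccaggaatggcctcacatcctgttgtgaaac
Trem2, chr17:48346177-48346400: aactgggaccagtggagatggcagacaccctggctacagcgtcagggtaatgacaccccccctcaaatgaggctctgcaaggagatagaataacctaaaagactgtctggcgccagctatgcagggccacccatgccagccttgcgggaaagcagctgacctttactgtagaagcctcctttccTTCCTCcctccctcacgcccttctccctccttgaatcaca

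Motifs of 5 families of transcription factors that the panel itself measures were searched on both strands. The PU.1-type motif GAGGAA stood once before Trem1, 136 bases from the gene start on the plus strand, and once before Trem2, 40 bases from the start on the minus strand (read as TTCCTC), and 21.1% of 32843 promoter windows of the same length held it. The STAT-type motif TTCNNNGAA, which reads alike on both strands, stood once before Trem1, 145 bases from the start and directly in front of the PU.1-type match without overlap, was not found in the Trem2 window, and was held by 6.19% of windows. The C/EBP-type motif TTGCNNAA (8.47% of windows), an NF-kappaB-type motif (43.6%) and an IRF-type motif (2.61%) matched neither window. A match is a run of letters and does not show binding.

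Libraries held 653842 to 1626398 counts over the genes measured. Counts were scaled by 3 house-keeping genes, Actb, Gapdh and Rpl19, through their geometric mean (normalised counts), and levels are log2(normalised count + 1). Background was the mean plus 2 SD of a library's negative control probes, 16.7 to 65.2 counts, and Trem1 (110 to 6784 counts) and Trem2 (143 to 11630 counts) exceeded it in 33 of 33 libraries. Some libraries stood apart before any comparison. Positive controls were low in libraries 3 and 4 of the manipulated small intestine (3674 and 3489 counts of the most abundant control, against 7887 to 19070 elsewhere). Rpl19 was high in the library of the manipulated primary donor (12809 counts), in library 3 of the manipulated spleen (11807) and BM (11273) and in the second primary library of non-manipulated donors (19057), against at most 6998 counts elsewhere. Trem2 in library 2 of the non-manipulated spleen was only 2.19 times background, and Trem1 was 3.78 times background in library 2 of the manipulated and 2.32 times in library 2 of the non-manipulated BM. Of the markers fixed for monocytes and macrophages, 9 of 11 were measured, and their summed normalised count was 238960 to 288300 in the manipulated and 233745 to 318376 in the non-manipulated small intestine, which overlap. Of these 9 markers, Cx3cr1 (difference -3.86, limma adjusted p = 0.00197), Ccr2 (-2.24, 0.00303) and Csf1r (-1.35, 0.0286) fell in the manipulated small intestine. That is 3 of 9 lower and 0 of 9 higher, where 33.3% of all 57 genes passed (11 higher and 8 lower). The median difference was -0.82 over the 9 markers and -0.01 over all 57 genes. Within the sum, mean normalised counts of Ccr2 were 25121 in manipulated and 90097 in non-manipulated small intestine. Those of Cd14, which did not pass, were 122512 and 66295. No neutrophil, resident macrophage, lymphocyte, epithelial or stromal marker was on the panel, and of 6 dendritic cell markers only Ccr7 was, at 1129 to 4017 normalised counts in the manipulated and 1731 to 3747 in the non-manipulated small intestine. Donor cells in the small intestine were picked by congenic markers and a Ly6G-SiglecF-CD11b+CD11clo/intCD64+ gate, which the study describes as excluding dendritic cells. Whether other cells remained after this sort and contributed to the 2 genes was not tested.

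The first question was whether the recipient's gut changed either receptor in monocytes that reached it. Trem1, the amplifying receptor, was higher in cells from the manipulated small intestine. Trem1 measured 6619, 2532, 3325, 6692 and 6435 normalised counts in the 5 libraries of the manipulated small intestine. In the 4 libraries of the non-manipulated small intestine it measured 741, 618, 3178 and 1366 normalised counts. In 4 of 5 manipulated libraries Trem1 lay above every non-manipulated one, and the groups overlapped because library 3 of the non-manipulated group exceeded library 2 of the manipulated group. The mean level was 12.21 ± 0.66 in the manipulated (SD, n = 5) and 10.21 ± 1.07 in the non-manipulated small intestine (SD, n = 4). Trem1 rose by 2.00 on the log2 scale (SE 0.67, 95% interval 0.61 to 3.38, 3.99-fold, limma with Benjamini-Hochberg adjustment over 57 genes, adjusted p = 0.0248). In the same comparison 33.3% of the 57 genes passed (19 genes, 11 higher and 8 lower), and Trem1 ranked 15 of 57 by p. "Passed" means an adjusted p under 0.05 throughout.

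The Trem1 call in the small intestine depended on single libraries. It was lost without non-manipulated library 1 (adjusted p = 0.0741) or 2 (0.0905) and without manipulated library 1 (0.0519) or 4 (0.0521), while the difference stayed between 1.68 and 2.47 (limma). It was also lost with edgeR (1.79, adjusted p = 0.0516). The deposited values of 18 libraries carry a lane multiplier, which was divided out here, and 3 manipulated and 2 non-manipulated small intestine libraries are among them. Within the libraries deposited without it the difference was 2.60 (limma, adjusted p = 0.0497), and within those deposited with it 1.33 (adjusted p = 0.554). Without both libraries of low positive control it was 2.00 (adjusted p = 0.0457).

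Trem2 was spread widely in the small intestine of both recipient states. It measured 1655, 476, 6172, 3586 and 1993 normalised counts in the manipulated small intestine. In the non-manipulated small intestine it measured 1989, 2441, 7208 and 4915 normalised counts. The groups overlapped, with the lowest value in manipulated library 2 and the highest in non-manipulated library 3. In both groups libraries 3 and 4, deposited with a multiplier of 1.333, lay above libraries 1 and 2, deposited without one. Manipulated library 5 (1993), deposited with a multiplier of 2, lay between them. Whether Trem2 followed the multiplier was not tested. The mean level was 10.99 ± 1.39 in the manipulated (SD, n = 5) and 11.82 ± 0.87 in the non-manipulated small intestine (SD, n = 4), a difference of -0.83 (SE 0.88, 95% interval -2.65 to 0.98, limma adjusted p = 0.45). The interval holds 0 and differences in both directions.

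**Figure D1:**
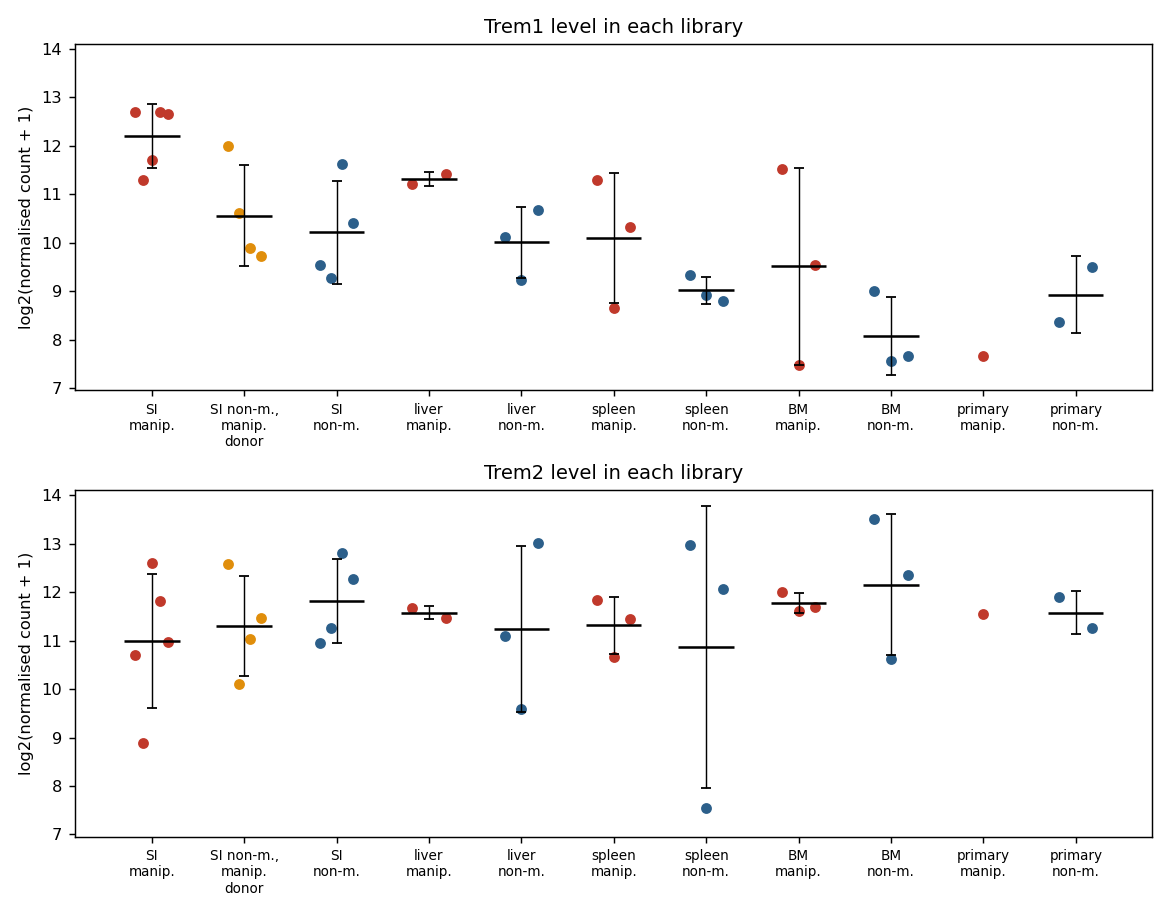
Level of Trem1 (top) and Trem2 (bottom) as log2(normalised count + 1) in each of the 33 libraries, by tissue and recipient state; bars are the group mean ± SD where a group has more than 1 library. Trem1 in the manipulated small intestine sits between 11.31 and 12.71, and Trem2 in the same libraries between 8.90 and 12.59.

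The ratio of the 2 signals within a library does not depend on the scaling. The probes differ in efficiency, so a ratio above 1 does not mean more Trem1 RNA, and only differences of the ratio between libraries are read, without a test. On the log2 scale the ratio of Trem1 to Trem2 was 2.00, 2.41, -0.89, 0.90 and 1.69 in the manipulated small intestine. It was -1.42, -1.98, -1.18 and -1.85 in the non-manipulated small intestine. The 5 manipulated libraries all lay above the 4 non-manipulated ones, with library 3 closest to them. Of the 57 genes, 38.6% likewise did not overlap between these groups in either direction. The mean log2 ratio was 1.22 ± 1.31 in the manipulated (SD, n = 5) and -1.61 ± 0.37 in the non-manipulated small intestine (SD, n = 4), a difference of 2.83. Within the libraries deposited without a multiplier that difference was 3.91 and within those deposited with one 2.08.

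In the order of the log2 ratio over the 33 libraries, libraries 2, 1 and 5 of the manipulated small intestine came first (2.41, 2.00 and 1.69). Library 2 of the non-manipulated spleen (1.37), in which Trem2 lay close to background, and library 4 of the manipulated small intestine (0.90) followed, then library 2 of the cells of manipulated donors in the non-manipulated small intestine (0.51).

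**Figure D2:**
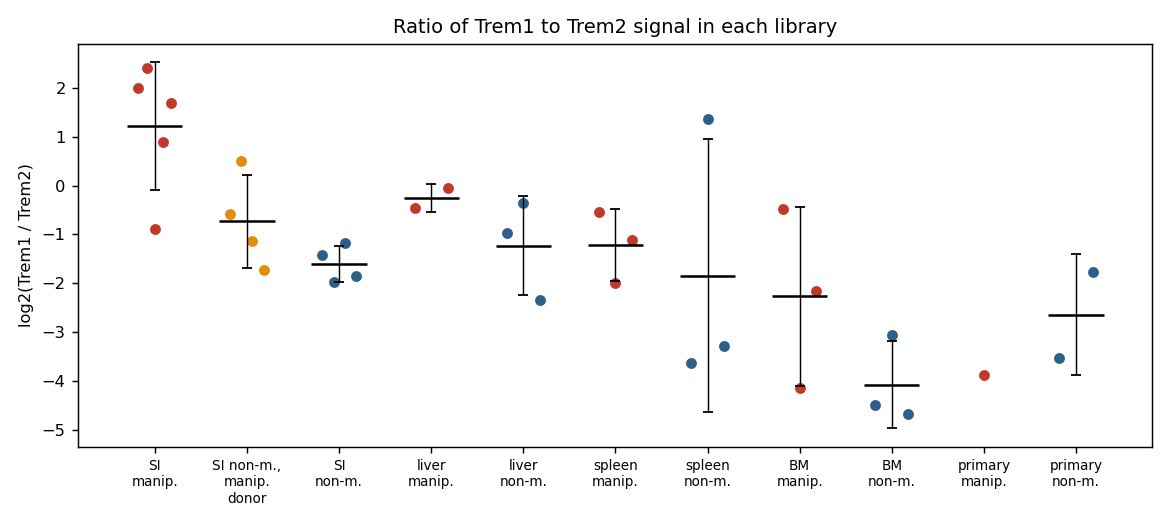
Ratio of Trem1 to Trem2 signal on the log2 scale in each library, with group mean ± SD. All 5 libraries of the manipulated small intestine lie above the 4 of the non-manipulated small intestine, whose highest value is -1.18. Between these groups 38.6% of the 57 genes did not overlap either.

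The same comparison was made in the other organs of the recipients. In liver, Trem1 measured 2367 and 2750 normalised counts in manipulated and 1111, 599 and 1637 in non-manipulated recipients. The 2 manipulated libraries lay above all 3 others, as 21.1% of the 57 genes did not overlap between these groups in either direction. The difference was 1.31 (SE 0.92, 95% interval -0.58 to 3.19) and did not pass (limma, adjusted p = 0.713). Neither gene, and 0% of the 57 genes, passed in liver by limma, with 6 genes at an unadjusted p under 0.05, 0 genes called by edgeR and 2 by DESeq2. Trem2 in liver measured 3247 and 2848 normalised counts in manipulated and 2194, 771 and 8312 in non-manipulated recipients, with both manipulated libraries inside the range of the others (difference 0.33, SE 1.20, limma adjusted p = 0.991). The sign of this Trem2 difference turned in some settings (-0.49 without non-manipulated library 2).

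In spleen, Trem1 measured 2520, 405 and 1288 normalised counts in manipulated and 647, 482 and 445 in non-manipulated recipients. Manipulated libraries 1 and 3 lay above and library 2 below all non-manipulated ones, and the difference was 1.08 (SE 0.82, limma adjusted p = 0.618). Trem2 measured 3645, 1621 and 2781 normalised counts in manipulated and 8085, 186 and 4314 in non-manipulated recipients. Its difference of 0.44 (SE 1.07, limma adjusted p = 0.889) rested on the non-manipulated library close to background, and was -1.22 without it. In spleen 0% of the 57 genes passed by limma, with 6 at an unadjusted p under 0.05, 0 called by edgeR and 2 by DESeq2.

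In BM, Trem1 measured 2952, 176 and 743 normalised counts in manipulated and 510.1, 188 and 203 in non-manipulated recipients. Libraries 1 and 3 of the manipulated BM lay above all non-manipulated ones, and library 2 was the lowest of all 6. The difference was 1.43 (SE 0.82, 95% interval -0.25 to 3.12, limma adjusted p = 0.437), and 2.46 without manipulated library 2, when it passed (adjusted p = 0.0458). Trem2 measured 4130.4, 3143 and 3329.8 normalised counts in manipulated and 11587, 1565 and 5219.9 in non-manipulated recipients, and the manipulated libraries lay inside the range of the others (difference -0.38, SE 1.07, limma adjusted p = 0.83). In BM 1.75% of the 57 genes passed by limma, a single gene that is neither of the receptors, and 0 genes in a fit of the BM groups alone, with or without the library number as a block, 5 by edgeR and 6 by DESeq2.

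**Figure D3:**
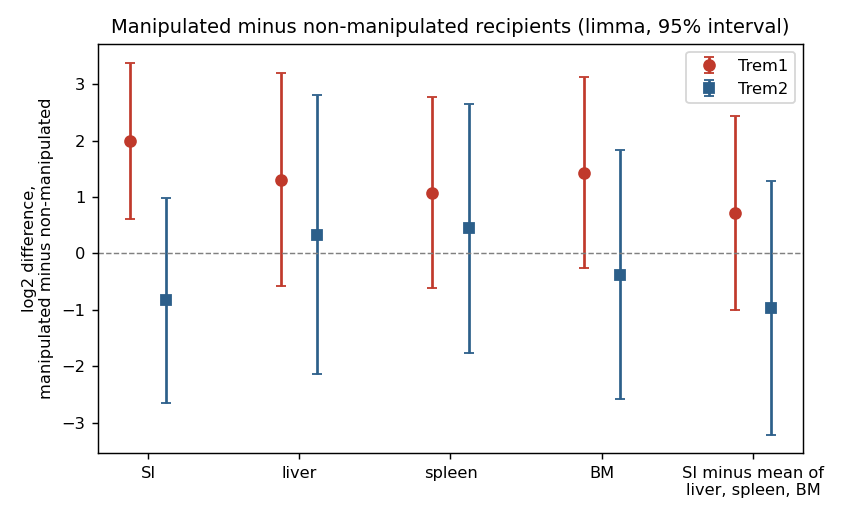
Difference in level between manipulated and non-manipulated recipients on the log2 scale with its 95% interval (limma) for Trem1 (circles) and Trem2 (squares) in 4 tissues, and, at the right, the difference in the small intestine minus the mean of the differences in liver, spleen and BM. The Trem1 estimates are 2.00, 1.31, 1.08 and 1.43, and only that of the small intestine has an interval above 0.

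Since Trem1 passed in the small intestine alone, the difference between tissues was tested itself. The Trem1 difference in the small intestine exceeded the mean of those in liver, spleen and BM by 0.72 (SE 0.83, 95% interval -0.99 to 2.44, limma adjusted p = 0.774). For Trem2 the value was -0.97 (SE 1.09, limma adjusted p = 0.774). The test of this difference passed for 14% of the 57 genes, neither of the 2 receptors among them, so a response of Trem1 or Trem2 particular to the small intestine was not shown.

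Cells of manipulated donors in a non-manipulated gut addressed whether the donor's state is enough. Trem1 measured 4111, 1559, 955 and 847 normalised counts in these cells, against 741, 618, 3178 and 1366 in cells of non-manipulated donors in the same tissue. The groups overlapped (difference 0.35, SE 0.71, limma adjusted p = 0.969). Trem2 measured 6121, 1097, 2096 and 2828 normalised counts in these cells, and its difference to cells of non-manipulated donors was -0.53 (SE 0.93, limma adjusted p = 0.964). By limma 0% of the 57 genes passed, with 5 at an unadjusted p under 0.05, 1 called by edgeR and 3 by DESeq2. Library 1 of this group held the highest Trem1 value outside the manipulated small intestine, and without it the Trem1 difference was -0.14.

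Cells from the manipulated small intestine were then set against those cells of manipulated donors. The Trem1 difference was 1.65 (SE 0.67, 95% interval 0.27 to 3.04) and missed the threshold (limma, unadjusted p = 0.0214, adjusted p = 0.119), in a comparison where 8.77% of the 57 genes passed. Without library 1 of the manipulated-donor group it was 2.13 and passed (adjusted p = 0.041). The Trem2 difference was -0.30 (SE 0.88, limma adjusted p = 0.803). The mean log2 ratio was 1.22 ± 1.31 in the manipulated small intestine (SD, n = 5) and -0.74 ± 0.96 in the manipulated-donor group (SD, n = 4).

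Levels across tissues were compared within each recipient state. In manipulated recipients the mean Trem1 level was 12.21 in small intestine, 11.32 in liver, 10.10 in spleen and 9.51 in BM, and Trem1 differed over the 4 tissues (limma F test, adjusted p = 0.0212), as 28.1% of the 57 genes did. This call was lost without small intestine library 4 (adjusted p = 0.0512) or BM library 2 (0.0709). Trem1 was higher in small intestine than in BM by 2.70 (SE 0.73, limma adjusted p = 0.00486), where 35.1% of the 57 genes passed, and the groups overlapped through BM library 1. Without BM library 2 that difference was 1.68 (adjusted p = 0.0978). The call was also lost with the library number as a block within these groups (limma, adjusted p = 0.124).

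Trem1 was also higher in small intestine than in spleen of manipulated recipients by 2.11 (SE 0.73, limma adjusted p = 0.0324), where 31.6% of the 57 genes passed. Each small intestine library exceeded each spleen library, as for 28.1% of genes in either direction. The margin was narrow, with 2532 normalised counts in small intestine library 2 and 2520 in spleen library 1. Before scaling these 2 libraries held 1825 and 3929 counts, so their order depends on the scaling. The call was lost without small intestine library 1 (adjusted p = 0.061), 4 (0.0652) or 5 (0.0529) and without spleen library 2 (0.228) or 3 (0.0588). It was also lost with the library number as a block within these groups. Small intestine and liver of manipulated recipients differed in Trem1 by 0.89 (SE 0.84, limma adjusted p = 0.633), and 8.77% of the 57 genes passed between them.

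In non-manipulated recipients the mean Trem1 level was 10.21 in small intestine, 10.01 in liver, 9.02 in spleen and 8.08 in BM. The order of tissues was the same as in manipulated recipients, but the F test did not pass (limma, adjusted p = 0.155), where 8.77% of the 57 genes passed. Small intestine exceeded BM by 2.14 (SE 0.77, limma adjusted p = 0.0631), with no overlap between the groups, as for 26.3% of genes. Here 12.3% of the 57 genes passed, and Trem1 did so without small intestine library 2 (adjusted p = 0.0467) or BM library 1 (0.0438). Liver exceeded BM by 1.93 (SE 0.82, limma adjusted p = 0.0966), and 15.8% of the 57 genes passed between them.

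Trem2 levels did not separate the tissues. In manipulated recipients the mean Trem2 level was 11.78 in BM, 11.57 in liver, 11.31 in spleen and 10.99 in small intestine (limma F test, adjusted p = 0.96). In non-manipulated recipients it was 12.15 in BM, 11.82 in small intestine, 11.24 in liver and 10.87 in spleen (adjusted p = 0.85). Over all 26 comparisons of 2 groups, Trem2 passed in 0 by limma, with 0 at an unadjusted p under 0.05, and in 0 by edgeR and 0 by DESeq2. The standard errors of these Trem2 differences were 0.88 to 1.31, against 0.67 to 1.00 for Trem1. Trem1 passed in 4 of the 26 by limma, in 2 by edgeR and in 5 by DESeq2. All 4 limma passes set the manipulated small intestine against another group, so they share its 5 libraries. The other groups were non-manipulated small intestine, manipulated spleen, manipulated BM and primary monocytes of non-manipulated donors. Of the 57 genes, 33.3%, 31.6%, 35.1% and 35.1% passed in these comparisons.

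Among the tissues of each recipient state the mean log2 ratio was lowest in BM (-2.27 in manipulated and -4.08 in non-manipulated recipients), without a test. Primary monocytes lay below manipulated BM, at a mean of -2.65 for non-manipulated donors and -3.89 in the library of the manipulated donor. The ratio was -0.48, -4.16 and -2.16 on the log2 scale in BM of manipulated recipients and -4.51, -3.05 and -4.69 in BM of non-manipulated recipients. In libraries 1 and 3 of the manipulated BM it was above all non-manipulated BM libraries and in library 2 it lay among them. In spleen it was -0.53, -2.002 and -1.11 in manipulated and -3.64, 1.37 and -3.28 in non-manipulated recipients, so that all 3 manipulated libraries lay between the outlying library 2 and the other two of the non-manipulated group. In liver it was -0.46 and -0.05 in manipulated and -0.98, -0.36 and -2.34 in non-manipulated recipients, which overlap.

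**Figure D4:**
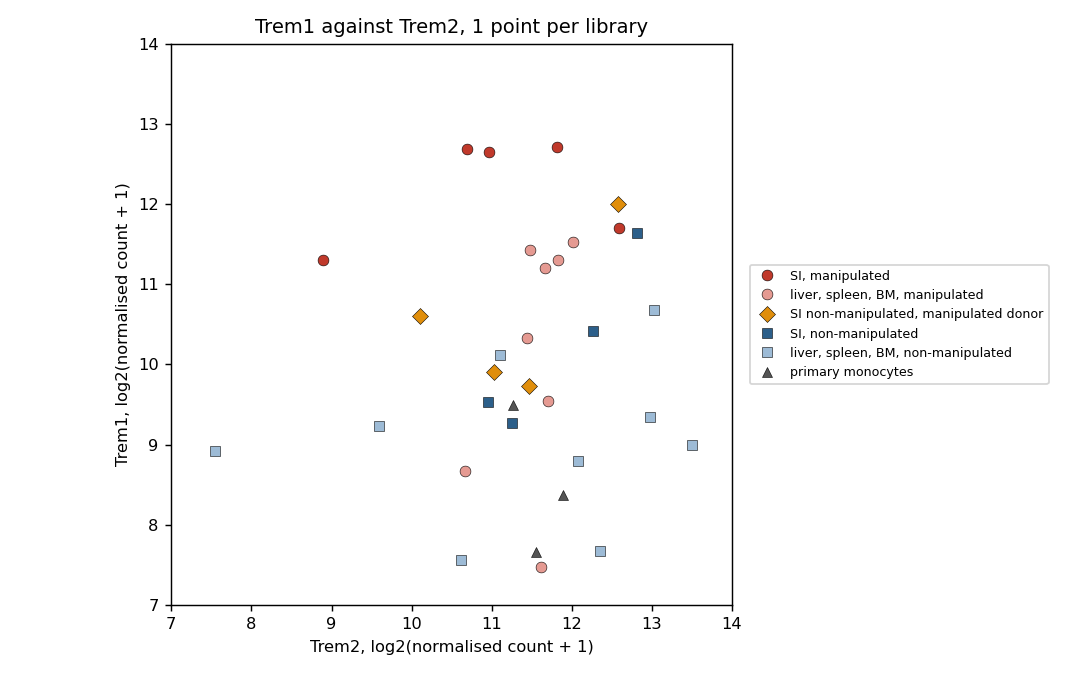
Trem1 level against Trem2 level, each as log2(normalised count + 1), with 1 point per library. Libraries of the manipulated small intestine lie between 11.31 and 12.71 on the Trem1 axis and between 8.90 and 12.59 on the Trem2 axis.

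Primary monocytes give the levels before transfer. Trem1 measured 202 normalised counts in the library of the manipulated donor, and 329 and 722 in those of non-manipulated donors. Trem2 measured 2994 normalised counts in the library of the manipulated donor, and 3794 and 2456 in those of non-manipulated donors, and the log2 ratio was -3.89 in the manipulated donor's library and -3.53 and -1.77 in those of non-manipulated donors. The ratio in all 3 primary libraries lay below that of every library of the manipulated small intestine, the lowest of which was -0.89. Between the manipulated small intestine and the primary libraries of non-manipulated donors, 40.4% of the 57 genes did not overlap in either direction.

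Compared with primary monocytes of non-manipulated donors, Trem1 was higher in cells from the manipulated small intestine by 3.28 (SE 0.84, 95% interval 1.55 to 5.01, limma adjusted p = 0.00274). The lowest recovered library (2532 normalised counts) exceeded the highest primary one (722), as 40.4% of the 57 genes did not overlap here and 35.1% passed. The median of all 57 genes was itself 0.64 higher in this comparison, and 0.01 to 0.88 higher under other scalings, and Trem1 exceeded that median by 2.64, a gap that scaling leaves nearly as it is by construction. Without the first primary library the call was lost (2.71, adjusted p = 0.0566). In liver of manipulated recipients Trem1 exceeded primary monocytes by 2.39 (SE 1.00, limma adjusted p = 0.12), where 10.5% of the 57 genes passed.

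Ordered by mean level over the 11 groups, Trem1 was highest in the manipulated small intestine (12.21), followed by manipulated liver (11.32), manipulated-donor cells in small intestine (10.56), non-manipulated small intestine (10.21), manipulated spleen (10.10), non-manipulated liver (10.01), manipulated BM (9.51), non-manipulated spleen (9.02), primary monocytes of non-manipulated donors (8.93), non-manipulated BM (8.08) and the single primary library of the manipulated donor (7.66). For Trem2 the groups ran from 12.15 in non-manipulated BM to 10.87 in non-manipulated spleen. Among groups with more than 1 library, no neighbours in either order passed the limma test. The primary library of the manipulated donor has no spread of its own, so its place in the order is not read. Spread between libraries of 1 group was 1.03 for Trem1 and 1.37 for Trem2 (residual SD on the log2 scale), against a median of 0.85 over the 57 genes.

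Which panel genes followed the receptors was described by Pearson r over the 33 libraries, which share house-keeping scaling and group structure. Closest to Trem1 were Cd14, a co-receptor of Toll-like receptor 4 (r = 0.81, Spearman rho 0.84), Cd44, the hyaluronan receptor (r = 0.81, rho 0.77), the interleukin genes Il1a (r = 0.81, rho 0.77) and Il1b (r = 0.77, rho 0.77), and the co-stimulatory ligand Cd80 (r = 0.76, rho 0.76). Among the most opposed were Card9, an adaptor downstream of Syk (r = -0.70, rho -0.63), and Stat6, which carries IL-4 signals (r = -0.61, rho -0.59). Over the 11 group means r was 0.93 for Il1a and 0.92 for Cd14, while over deviations from the group means it was 0.43 and 0.58. Cd44 had the highest r within groups (0.73).

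No gene followed Trem2 as closely. The highest r over the 33 libraries was with Ccr2, the receptor for CCL2 (r = 0.52, rho 0.43), followed by the endosomal receptor Tlr8 (r = 0.47), the transcription factors Irf5 (r = 0.41) and Irf4 (r = 0.39) and Emr1, which encodes F4/80 (r = 0.36). The lowest were with Cxcl11, an interferon-induced chemokine (r = -0.41), Nod2, a sensor of bacterial peptidoglycan (r = -0.38), and Spi1, which encodes PU.1 (r = -0.36). Trem1 and Trem2 correlated with each other at r = 0.08 (rho 0.13) over libraries, at -0.42 over the 11 group means and at 0.42 over deviations from the group means. Within groups, libraries with more Trem1 thus tended to hold more Trem2, and between groups the sign was the opposite. In the non-manipulated small intestine both genes were higher in the libraries deposited with a multiplier (Trem1 3178 and 1366 against 741 and 618 normalised counts). In the manipulated small intestine Trem1 did not split this way. Whether the r within groups followed the multiplier was not tested.

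**Figure D5:**
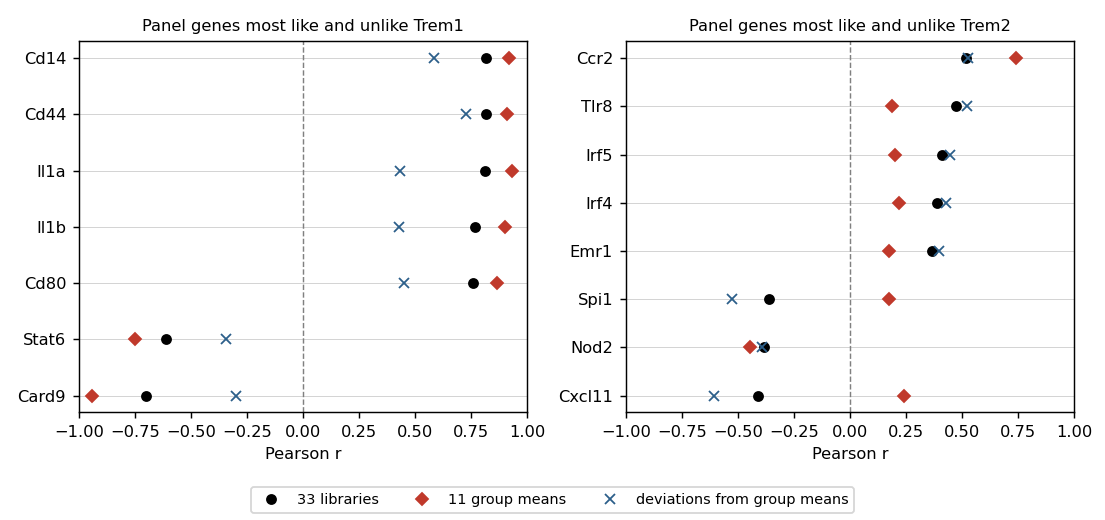
Pearson r with Trem1 (left) and Trem2 (right) for the 5 genes with the highest r and the genes shown among those with the lowest r over 33 libraries (circles), with r over 11 group means (diamonds) and over deviations from group means (crosses). The 5 highest for Trem1 run from 0.76 to 0.81 over libraries, and those for Trem2 from 0.36 to 0.52.

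The log2 ratio of Trem1 to Trem2 followed several of the same genes over the 33 libraries, with r = 0.82 for Il1a, 0.80 for Cd80, 0.77 for Cd14 and 0.76 for Il1b, and r = -0.83 for Ccr2 and -0.74 for Card9. In the small intestine Il1a was 129916 to 169878 normalised counts in manipulated and 8507 to 11726 in non-manipulated recipients. Ccr2 was 6004 to 47431 normalised counts in manipulated and 69061 to 137250 in non-manipulated small intestine. Neither gene overlapped between these groups, as 38.6% of the 57 genes did not, and both were named for following the ratio over libraries that include these.

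The pathway around the receptors was covered in part. Of 12 adaptors and proximal signalling genes only Card9 was measured in all libraries, and the adaptor itself, Tyrobp, was not on the panel. Card9 fell by 1.01 in the manipulated small intestine (SE 0.38, limma adjusted p = 0.0413). Of 20 pattern recognition receptors and their adaptors, with which TREM1 is known to act, 7 were measured. In the small intestine 0 of 7 passed (median 0.60, against -0.01 over all 57 genes), where 33.3% of the 57 genes did. The largest difference among them was that of Cd14 (0.91, SE 0.55, limma adjusted p = 0.207), with non-overlapping groups of 102154 to 167416 normalised counts in manipulated and 52209 to 97659 in non-manipulated recipients, as for 38.6% of genes. Of 6 NF-kappaB genes 3 were measured (Nfkb1, Nfkb2 and Relb) and 0 of 3 passed, against the same 33.3%, with differences of -0.05 to 0.36.

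Cytokines and chemokines known to be raised by TREM1 signalling were higher in the manipulated small intestine. Of 13 listed genes 8 were measured, and 7 of 8 passed there, all higher. The median of the 8 was 3.78, against -0.01 over all 57 genes, of which 33.3% passed (11 higher and 8 lower). The gene that did not pass was Il1b (1.18, SE 0.56, limma adjusted p = 0.105). In liver, spleen and BM 0 of 8 passed, where 0%, 0% and 1.75% of the 57 genes did. The largest differences in the small intestine were those of Ccl7, a monocyte chemoattractant (7.64, SE 1.35, limma adjusted p = 9.86e-05), Il6 (4.63, SE 0.77, adjusted p = 8.39e-05), Il1a (3.92, SE 1.06, adjusted p = 0.00529) and Il23a (3.84, SE 0.86, adjusted p = 0.00147). Ccl7 was 6258 to 31004 normalised counts in manipulated and 71.4 to 116 in non-manipulated small intestine. Il6 was 553 to 4552 in manipulated and 69.7 to 75.6 in non-manipulated small intestine. Both exceeded background in every one of these libraries. In the non-manipulated ones they did so narrowly, against a background of 26.3 to 46.7 counts, so the sizes of both differences rest on low signal. In the test of small intestine against the other tissues 6 of 8 passed, all higher, where 14% of the 57 genes passed and all of those were higher. Trem1 did not pass there. Whether TREM1 signalling contributed to these cytokine and chemokine differences was not tested.

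Of 20 genes of macrophage maturation and alternative activation, often measured beside TREM2, 11 were measured. In the manipulated small intestine 2 of 11 were higher and 2 of 11 lower (median -0.64), a share near the 33.3% of all 57 genes that passed. Arg1, arginase, rose by 6.44 (SE 1.11, limma adjusted p = 9.44e-05) and Il10, an anti-inflammatory cytokine, by 1.88 (SE 0.42, adjusted p = 0.00147). Cx3cr1, the fractalkine receptor of maturing gut macrophages, fell by 3.86 (SE 0.91, adjusted p = 0.00197). Siglec-1, a macrophage adhesion receptor, differed by -3.02 but did not pass (SE 1.76, adjusted p = 0.188).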

How the data were processed

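Cells were pooled, reverse transcribed, preamplified with gene-specific primers and hybridised to bar-coded probes by the authors, so no alignment or genome build enters and values are counts after preamplification, without molecular identifiers. Deposited gene values were bar-code counts in 15 libraries. In 18 libraries the deposited values were a signal, the counts times 1.33, 1.333, 2 or 4, for a reason not given in the sources used here. The constant was taken as the largest that left every gene value of a library whole within 0.002, and was divided out. That 100% of 1988 gene values were then whole follows from this rule in the 18 libraries and is no separate check there. The authors' normalised values, deposited as a score rounded to whole numbers, served as an alternative only.

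The panel listed 67 genes and 5 house-keeping genes, and the 57 genes measured in all libraries all passed the filter (above the mean plus 2 SD of the negative controls in at least 2 libraries). Counts were scaled by Actb, Gapdh and Rpl19 and log2(normalised count + 1) was fitted with limma 3.58.1 (R 4.3.3), with 1 mean for each of 11 groups over 33 libraries, without covariates. Tests were two-sided with Benjamini-Hochberg adjustment over 57 genes and a threshold of 0.05. Scripts were tested on simulated data. Groups and mouse numbers came from the sample titles, and each library is labelled as its own mouse within a group. Same-numbered manipulated and non-manipulated libraries deviated from their group means together in liver, spleen and BM. The r was 0.16 to 0.51 in liver (2 pairs), 0.41 to 0.59 in spleen (3 pairs) and 0.53 to 0.61 in BM (3 pairs). Some tissues of 1 recipient state also deviated together. These were manipulated spleen and BM (r = 0.69 to 0.88), liver and spleen (0.73 to 0.81) and liver and BM (0.60 to 0.71). In non-manipulated recipients they were spleen and BM (0.44 to 0.77) and liver and spleen (0.17 to 0.71). The small intestine did not, with a negative r in at least 1 pair against each tissue. Its r with liver, spleen and BM was -0.48 to 0.16, -0.27 to 0.21 and -0.26 to 0.31 in manipulated recipients. In non-manipulated recipients it was -0.08 to 0.38, -0.44 to 0.38 and -0.56 to 0.36. Non-manipulated liver and BM gave -0.04 to 0.55. What the number shares is not stated.

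The genes named were both receptors, the 5 genes with the highest and the 3 with the lowest r to each, and up to 4 genes per list with the largest absolute difference in the small intestine. Genes that followed the ratio were taken from the same ranking. A gene that this rule names is not reported here. Members, lists and tests were chosen with earlier results of these data known. Alternatives were other scalings, pseudocounts, background subtraction, no filter, edgeR 4.0.16, DESeq2 1.42.0, the test of the study's methods, the library number as a block, subsets by multiplier and leaving out libraries.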

Additional observations from a re-analysis of the deposited data

How the results depend on the processing

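Precision was limited by 1 to 5 libraries per group and by the wide spread of Trem2. The rise of Trem1 in the manipulated small intestine kept its direction under each of 20 settings. It did not pass with total count scaling (1.78, adjusted p = 0.0637), edgeR (1.79, adjusted p = 0.0516), the library number as a block within the compared groups, which leaves the unpaired library 5 without weight (1.89, adjusted p = 0.0699) or within libraries deposited with a multiplier (1.33, adjusted p = 0.554, limma). Numbers did not pair these libraries (r = -0.32 to 0.21, 4 pairs). The block changed no Trem1 or Trem2 call between manipulated and non-manipulated recipients in liver, spleen or BM. Leaving out 1 library at a time gave 1.68 to 2.47 for Trem1 and 14 to 19 genes called, and the libraries deposited with a multiplier gave 5 genes. The test of the study's methods called 24 genes there at its own threshold and 23 after Benjamini-Hochberg adjustment, against 19 by limma. Over other scalings the median of all genes moved between -0.23 and 0.52, with Trem1 along with it. The number within recipient state as a random block over all libraries, added after seeing the data, gave 2.00 (adjusted p = 0.0198), an F test for Trem1 over manipulated tissues of adjusted p = 0.00976, and a pass between non-manipulated small intestine and BM (2.13, adjusted p = 0.0299). The difference of the log2 ratio was 3.91 without and 2.08 with a multiplier, and 2.53 to 3.36 on leaving out single libraries.

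The Trem2 difference in the small intestine stayed negative (-1.64 to -0.30, and -1.23 to -0.31 without single libraries). The others changed sign in some settings. In liver Trem2 was -0.30 with edgeR and with DESeq2, -1.54 within libraries deposited with a multiplier and -0.40 without all libraries numbered 2 (-0.49 to 1.22 without single libraries). In spleen it was -0.65 with edgeR and with DESeq2, -0.63 within libraries deposited without a multiplier, -1.22 without the library close to background and -0.89 without those numbered 2 (-1.22 to 1.50). In BM it was 0.12 with total count scaling (-1.15 to 0.30), and Trem1 in BM was 0.43 to 2.46 without single libraries. In the donor comparison Trem2 was 0.10 on the authors' normalised values, and Trem1 was -0.14 to 0.82 without single libraries. The Trem2 difference between manipulated small intestine and manipulated-donor cells was -0.70 to 0.22. The test of small intestine against other tissues gave 0.00445 for Trem2 with edgeR and with DESeq2 and 0.29 without libraries numbered 2. The log2 ratio difference was 2.29 in liver and -0.13 in spleen within libraries deposited with a multiplier (-0.26 to 2.24 in spleen without single libraries), and 3.27 in BM without those numbered 2. Leaving out the libraries numbered 2, the library close to background or both libraries of low positive control was chosen after seeing the data. The cause of these changes was not tested.

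Among manipulated recipients, the Trem1 call between small intestine and spleen was lost in 9 settings, among them TMM (1.74), total count (1.58), edgeR (1.87) and the block within these groups (1.80). That between small intestine and BM was lost with the block (2.39, adjusted p = 0.124) and without libraries numbered 2 (1.90, adjusted p = 0.0615), as well as by the methods' test after adjustment. The F test over tissues was lost with TMM (adjusted p = 0.0837) and total count scaling (0.151). Over all settings the count of genes called was 5 to 24 between manipulated and non-manipulated small intestine (19 as reported), 0 to 10 in BM (1), 0 to 5 in spleen (0), 0 to 2 in liver (0) and 1 to 15 between manipulated small intestine and manipulated-donor cells (5). Between manipulated small intestine and spleen 18 genes were called as reported, 13 with these groups alone and 10 with the block added. Against BM these were 20, 16 and 10 genes, with 9 to 25 over all settings, and against primary monocytes 13 to 26 (20).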
